A study of Mus musculus with 13 samples.

Results

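RNA recovered by the RNA-binding part of dAKAP1 was compared with the RNA from which it was recovered. The bait, called KHT in the labels, is a purified protein with a maltose-binding protein tag, which was incubated with MA-10 RNA and recovered through that tag with an antibody. The comparison rests on 8 of the 13 libraries of the series, chosen by their titles: 4 KHT pull-downs and 4 libraries of the input RNA (IPT). The other 5 libraries, negative control pull-downs (NEG), did not enter any fit. The comparison asks which RNAs make up a larger or smaller part of the pull-down than of the starting material, by gene and by RNA class.

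MA-10 is an established, steroid-producing line from a mouse Leydig cell tumour. All 8 libraries came from cells in RPMI medium with horse serum, and the labels name no treatment of the cells. Nothing says that the replicates came from separate cultures, so p-values measure the spread between these libraries, which may be technical. KHT libraries are named for the bait in their titles and treatment field, although their description mentions negative control experiments. The stranded library kit depletes ribosomal RNA from total RNA, but the labels also call the molecule polyA RNA, a conflict that the labels leave unsettled. A bait of purified protein and extracted RNA measures binding in a tube: the RNA had no cell structure and no proteins of its own around it. Every level below is relative to the rest of the same library, so the amount of RNA held by the bait is not known.

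dAKAP1, the product of Akap1, is a scaffold of the outer mitochondrial membrane that anchors protein kinase A. Its C-terminal part has a KH domain, a fold that contacts short stretches of single-stranded RNA, and a Tudor domain. Messenger RNAs of mitochondrial proteins, including that of the steroidogenic protein StAR, are known as its ligands. Small structured RNAs are a different class: 7SL is the RNA of the signal recognition particle, 7SK holds an inhibitor of transcription elongation, RNase P and RNase MRP process precursor RNAs, U RNAs form the spliceosome, and snoRNAs and Cajal body RNAs guide RNA modification.

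KHT libraries held 1955446 to 3689792 estimated counts in total, and IPT libraries 2487679 to 3085423. The 14 features with at least 0.5% of pooled counts, led by CT010467.1 with 17.9% and Lars2 with 11.9%, took 35.2% to 56.3% of a KHT library and 34% to 42.9% of an IPT library. Levels are therefore given as normalised CPM (counts scaled to the size of the library, here after TMM scaling), in the order of the replicate numbers. All 9 Leydig markers were detected, with summed levels of 872 to 1363 CPM in KHT and 867 to 1648 CPM in IPT. Of the other cell types' markers, the 2 macrophage and blood markers in the table summed to at most 4.62 CPM in KHT and 2.76 CPM in IPT, and the 2 germ cell markers to at most 9.38 and 9.70 CPM. Sertoli markers summed to 66.4 to 129 CPM in KHT and 74.8 to 127 CPM in IPT, and endothelial and peritubular markers to 34.8 to 58.3 and 32.7 to 74.4 CPM. The 6 epithelial markers summed to 78.1 CPM in KHT 2 and 23.7 CPM in KHT 4, against at most 14.4 CPM in the 6 other libraries, and at least 1 count of each of these markers was present in the 8 libraries together.

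On stress and immediate early genes, the 8 libraries were also divided into 3 sets, a number set by choice, that cut across pull-down and input. Trib3, a target of the stress factor Atf4, stood at 230, 192, 15.8 and 13.8 CPM in KHT and at 202, 4.13, 15 and 5.54 CPM in IPT. Nr4a1, an immediate early gene of hormone and cAMP signalling, stood at 23.7, 18.1, 663 and 510 CPM in KHT and at 24.7, 166, 642 and 436 CPM in IPT. Both genes thus put KHT 1 and KHT 2 with IPT 1, and KHT 3 and KHT 4 with IPT 3. Over the 60 tested Atf4 targets and immediate early genes that averaged at least 10 CPM, the lowest correlation within a set was 0.956. The highest between the first set and the other libraries was 0.496. The second set and the remaining one were hardly apart, with a highest correlation of 0.951 between them. That remaining set holds IPT 2 and IPT 4 and has no pull-down. The labels do not say which input belongs to which pull-down, and in bulk RNA fewer cells of a type and less RNA per cell cannot be told apart. Values within the first set (KHT 1 and 2 over IPT 1) and within the second (KHT 3 and 4 over IPT 3) are given beside the pooled ones where they matter, as differences of mean log2 CPM without a test. Because those 60 genes formed the sets, their own values within a set are close by construction. Over 8632 genes the sets were less distinct. There, KHT 1 correlated at 0.932 with IPT 1 but at 0.839 with KHT 2, both of its set, and at 0.872 with IPT 2 outside it.

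Few single genes differed between pull-down and input by more than the spread between libraries. Among 10908 genes tested with edgeR, 1 was higher in KHT and 1 was lower at an adjusted p below 0.05, which is 0.00917% of genes in each direction. At an unadjusted p below 0.05, edgeR gave 159 genes (1.46%) higher and 153 genes (1.4%) lower. All KHT libraries lay above all IPT libraries for 103 genes (0.944%) and below them for 115 genes (1.05%). The 95% interval of the fold change lay within 2-fold in both directions for 7483 genes, or 68.6%. When libraries were scaled by their total counts alone, 1 gene was called higher and 2 lower, and the median log2 fold change of all genes moved from 0.01 to -0.24.

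**Figure D1:**
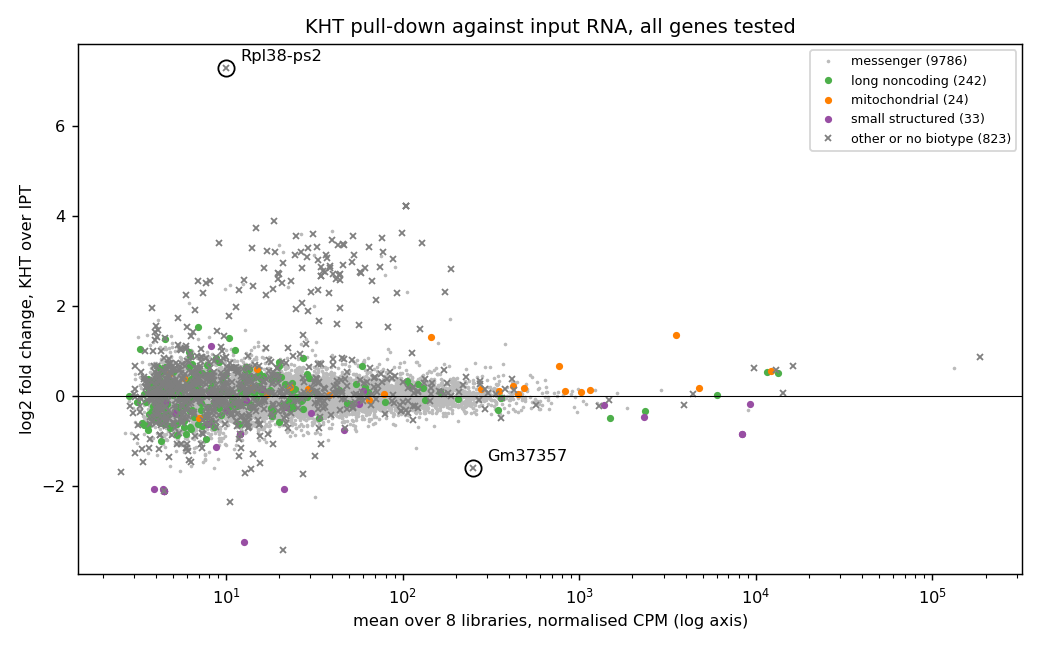
Log2 fold change of KHT over IPT (vertical axis) against the mean normalised CPM over the 8 libraries (horizontal log axis) for all 10908 genes tested, coloured by RNA class; the 2 genes called by edgeR are ringed. Messenger RNAs centre on 0, the abundant small structured RNAs lie at or below 0, and a cloud of features, most of them pseudogenes or without a biotype, lies above a log2 fold change of 2.

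The gene called lower was Gm37357, an unnamed gene model with no biotype in the annotation used here, which the rule for naming genes does not cover and which was chosen after its values were seen. Its levels were 112, 123, 132 and 129 CPM in KHT and 278, 466, 364 and 401 CPM in IPT. The groups did not overlap, and the spread over KHT (124 ± 9.04 CPM, SD, n = 4) was far below the gap to IPT (377 ± 78.2 CPM, SD, n = 4). The log2 fold change was -1.60 with a standard error of 0.16 (edgeR, adjusted p = 0.0113), and it was -1.24 within the first library set and -1.47 within the second. The call was lost without KHT 4 (edgeR, adjusted p = 0.0617), IPT 2 (0.0541), IPT 3 (0.0936) or IPT 4 (0.106), with log2 fold changes from -1.63 to -1.49, and when tested against a 2-fold change (edgeR, adjusted p = 1.000).

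The gene called higher was Rpl38-ps2, a pseudogene of the ribosomal protein gene Rpl38 (GRCm38, chromosome 6, 140746919 to 140747216), also outside the naming rule and chosen after its values were seen. It stood at 26.1, 11.5, 6.87 and 34.9 CPM in KHT, and at 0.278, 0, 0 and 0 CPM in IPT. All KHT libraries lay above all IPT libraries (edgeR, adjusted p = 0.0232), with 170 counts against 1, a ratio of 225 after scaling (exact 95% counting interval 39.8 to 8922, which covers counting error only). Its parent gene, Rpl38, stood at 118, 119, 90.0 and 101 CPM in KHT and at 147, 123, 132 and 114 CPM in IPT. Reads of near-identical copies can be split between them, and the sum of both was 127 ± 20.7 CPM (SD, n = 4) in KHT and 129 ± 14.0 CPM (SD, n = 4) in IPT. The call on the pseudogene was lost without KHT 4 (edgeR, adjusted p = 0.0617), IPT 1 (0.544), IPT 2 (0.250), IPT 3 (0.255) or IPT 4 (0.269). It was also lost with limma voom (adjusted p = 0.694), when tested against a 2-fold change (edgeR, adjusted p = 0.0752), with the library set as a term (edgeR, adjusted p = 1.000) and without the first library set (edgeR, adjusted p = 0.545).

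A further 90 features had a log2 fold change above 2 without being called, and they were high in particular KHT libraries. With Rpl38-ps2 they made 91 features, of which 55 are annotated pseudogenes, 22 have no biotype and 14 are protein-coding. KHT 2 was the highest of the 8 libraries for 82 of them. Their levels summed to 300, 16330, 4610 and 6433 CPM in KHT 1 to 4 and to 2071, 152, 995 and 303 CPM in IPT 1 to 4, so KHT 1 lay below IPT 1 and the groups overlapped. Among them, S100a6, a calcium-binding protein, stood at 8.71, 435, 65.2 and 198 CPM in KHT and at 86.4, 7.13, 24.9 and 21.6 CPM in IPT. Tmsb10, an actin-sequestering thymosin, stood at 6.62, 414, 47.2 and 170 CPM in KHT and at 43.1, 4.5, 29.2 and 9.70 CPM in IPT. Krt17, an epithelial keratin, stood at 1.39, 159, 5.08 and 31.0 CPM in KHT and at 12.8, 0, 1.58 and 0.277 CPM in IPT. These 3 genes and the limit were chosen after their values were seen. In the negative control pull-downs, S100a6 had 215, 215, 407 and 16 counts and Krt17 had 35, 46, 89 and 2 counts in NEG 1, 3, 4 and 5, while NEG 2 held 0 counts in all. The summed level of the epithelial markers above was also highest in KHT 2 and KHT 4. Epcam, the 1 epithelial marker tested, did not follow that sum. It stood at 6.97, 4.23, 5.38 and 7.25 CPM in KHT, lowest of the pull-downs in KHT 2, and was highest in IPT 1 at 8.06 CPM. The part of the epithelial markers in these features was not tested.

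Several small structured RNAs lay below their input levels in every pull-down. Of 352 features of this class in the table, 33 passed the filter on low counts, and they hold 25 distinct count profiles, because near-identical copies received the same values. All KHT libraries lay below all IPT libraries for 16 of the 33 (8 of 25 distinct profiles), against 1.05% of all genes, and above them for 0. An unadjusted p below 0.05 in edgeR was reached by 10 of the 25 profiles (18 of the 33 features) in the lower direction, against 1.4% of all genes, and by 0 in the higher one. None passed an adjusted p of 0.05, and the smallest edgeR adjusted p in the class was 0.257. DESeq2 called 10 of them lower (Rn7s1, Rn7s2, Rnu1a1 with 5 copies of identical counts, Gm25939 and Gm22009), and limma voom called 0. Without a filter on low counts, edgeR called 4 lower (Rn7s1, Rn7s2, Gm25939 and Rpph1). The median log2 fold change of the 25 profiles was -0.37, against 0.01 over all genes, and it was -0.34 within the first library set and -0.59 within the second. Over the 33 features, where U1 counts 6 times, U2 3 times and 7SL 2 times, it was -0.76. Of the 25 profiles, 8 reached the filter's level in all IPT but not in all KHT libraries, so that they entered through the group where they were higher, and 1 entered through KHT. Among the 14 profiles that reached it in all 8 libraries, 11 had a negative log2 fold change, the median was -0.22, and 3 (7SL, U2 and Gm22009) had every pull-down below every input. The 319 members that were not tested summed to 110, 108, 110 and 139 CPM in KHT and to 140, 171, 151 and 157 CPM in IPT, again with no overlap.

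7SL RNA was the most abundant member with separate groups. Rn7s1 and Rn7s2, its genes on chromosome 12 (69159295 to 69159593 and 69361183 to 69361481), had identical values and count as 1 measurement. Each stood at 4129, 6054, 5722 and 8030 CPM in KHT and at 10049, 10870, 9954 and 12391 CPM in IPT. The highest pull-down lay below the lowest input. The log2 fold change was -0.85 with a standard error of 0.22 and a 95% interval from -1.34 to -0.36 (edgeR, unadjusted p = 0.00277, adjusted p = 0.997), and it was -1.01 and -0.55 within the library sets.

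The other abundant RNAs made by RNA polymerase III had pooled fold changes nearer to 0 with overlapping groups, and their difference from 7SL was not tested. Rn7sk, the 7SK RNA (chromosome 9, 78175302 to 78175633), stood at 9539, 10520, 7771 and 6912 CPM in KHT and at 10098, 10104, 8138 and 10944 CPM in IPT, with overlapping groups and a log2 fold change of -0.18 (95% interval -0.62 to 0.26). Rpph1, the RNA of RNase P (chromosome 14, 50807447 to 50807771), stood at 2004, 2656, 1478 and 1750 CPM in KHT and at 2912, 2757, 2701 and 2464 CPM in IPT. KHT 2 lay above IPT 4, so the groups of Rpph1 overlapped by that pair alone, and its log2 fold change was -0.46 (95% interval -0.88 to -0.04; edgeR, unadjusted p = 0.0347, adjusted p = 0.997). Within the library sets Rpph1 was at -0.34 and -0.75, the latter a lower value than that of 7SL in the second set, and without a filter on low counts edgeR called it lower (adjusted p = 0.0442). Rmrp, the RNA of RNase MRP (chromosome 4, 43492785 to 43493059), stood at 1198, 1627, 1154 and 1169 CPM in KHT and at 1414, 1664, 1226 and 1637 CPM in IPT, with a log2 fold change of -0.21 (95% interval -0.58 to 0.16). Rn7sk and Rmrp were thus bounded to less than a 2-fold difference, while the interval of 7SL reached beyond it.

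**Figure D2:**
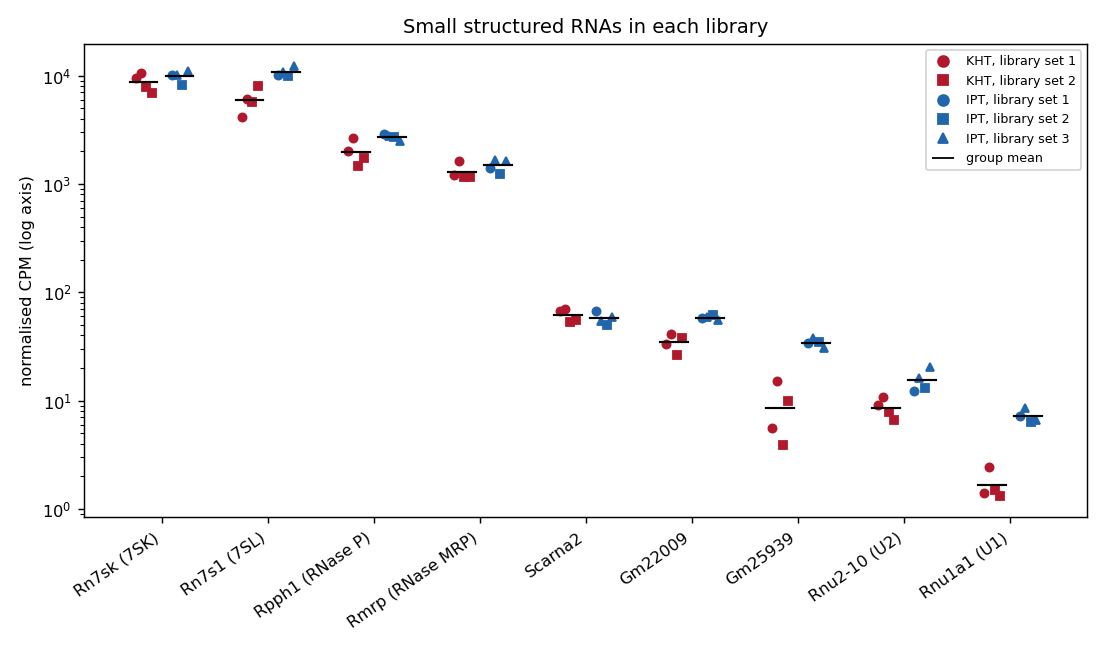
Normalised CPM (vertical log axis) of 9 small structured RNAs in each of the 4 KHT (red) and 4 IPT (blue) libraries; circles, squares and triangles mark the 3 library sets and bars the group means. KHT and IPT points are separate for 7SL (4129 to 8030 against 9954 to 12391 CPM), Gm22009, Gm25939, U2 and U1, and overlap for 7SK, RNase P, RNase MRP and Scarna2.

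Small nuclear RNAs, among them those of the spliceosome, were mostly at low levels, and 5 of their 8 profiles (U1, Gm22513, Gm24497, Gm25939 and Gm25360) reached the filter's level in all IPT but not in all KHT libraries, so that the filter favoured low fold changes among them. Rnu1a1, a U1 RNA gene (chromosome 11, 87422867 to 87423030), stood at 1.39, 2.42, 1.49 and 1.32 CPM in KHT and at 7.23, 8.63, 6.32 and 6.65 CPM in IPT. Another 6 gene models had the same counts in every library, 1 of them without a biotype. The log2 fold change was -2.12 (edgeR, unadjusted p = 0.000235, adjusted p = 0.257), -1.62 and -1.72 within the library sets. Gm25939, 1 of 3 small nuclear RNA models of 191 bases that lie between positions 72226240 and 72255198 of chromosome 1, stood at 5.58, 15.1, 3.89 and 9.89 CPM in KHT and at 34.2, 37.5, 34.8 and 30.5 CPM in IPT. Its log2 fold change was -2.07 (edgeR, adjusted p = 0.257). Gm24497, the middle one of these models, stood at 8.36 CPM in KHT 1 and at 0 in the other 3 pull-downs, against 31.7, 22.1, 12.2 and 26.3 CPM in IPT. That is 24 counts against 299, a ratio of 0.106 after scaling (exact 95% counting interval 0.0669 to 0.161, which covers counting error only and is too narrow if both mates of a pair were counted). Gm25360, the outermost of them, overlapped between groups through KHT 4, at 12.5 CPM in that library against 8.62 to 17.3 CPM in IPT. Rnu2-10, a U2 RNA gene (chromosome 11, 101658238 to 101658424) with 3 gene models of identical counts, stood at 9.06, 10.9, 7.77 and 6.59 CPM in KHT and at 12.2, 16.1, 13 and 20.2 CPM in IPT, with a log2 fold change of -0.84 (edgeR, adjusted p = 0.997). Gm24265, a small nuclear RNA model that reached that level in all KHT but not in all IPT libraries, had the highest fold change of the class. It stood at 15.3, 15.1, 6.28 and 8.57 CPM in KHT and at 7.78, 0, 7.90 and 4.99 CPM in IPT, with overlapping groups and a log2 fold change of 1.11 (95% interval -0.45 to 2.66).

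Guides of RNA modification were divided. Gm22009, a guide RNA model (chromosome 3, 69085105 to 69085447), stood at 33.1, 41.1, 26.3 and 37.6 CPM in KHT and at 58.4, 58.5, 61.2 and 54.9 CPM in IPT, with no overlap and a log2 fold change of -0.76 (edgeR, adjusted p = 0.653). Snora74a, a box H/ACA snoRNA, stood at 2.44, 0.605, 0 and 3.30 CPM in KHT and at 6.95, 6, 4.74 and 7.21 CPM in IPT. It reached the filter's level in all IPT but not in all KHT libraries, so it entered through the group where it was higher. Its KHT levels rest on 7, 1, 0 and 5 counts. Scarna2, a Cajal body RNA, stood at 67.3, 70.2, 53.5 and 55.4 CPM in KHT and at 66.4, 54.8, 49.4 and 59.0 CPM in IPT, with a log2 fold change of 0.10 (95% interval -0.24 to 0.44). Terc, the telomerase RNA, had a log2 fold change of 0.16 (95% interval -0.42 to 0.74), and Rny3, a Y RNA bound by Ro protein, one of -0.05 (95% interval -0.85 to 0.75). Among profiles at the filter's level in all 8 libraries, the 2 small nuclear RNAs (7SK and U2) had a median log2 fold change of -0.51, the 2 snoRNAs -0.50 and the 5 guide RNAs -0.18, and differences between types were not tested. Across the 25 distinct profiles, Spearman's rho of the fold change was -0.16 with annotated length and 0.18 with the level, a description over features of the same 8 libraries.

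**Figure D3:**
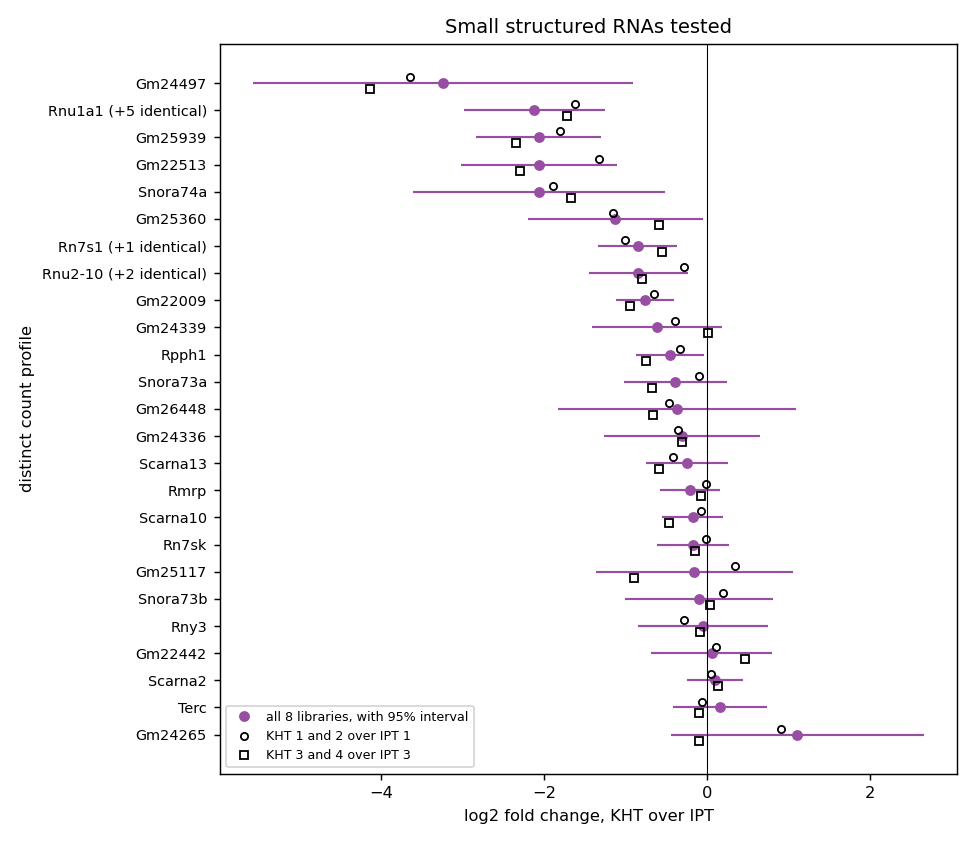
Log2 fold change of KHT over IPT (horizontal axis) for the 25 distinct profiles of small structured RNAs (rows), with 95% intervals from edgeR; open circles and squares are the values within the first and second library set. All but 4 profiles have a negative fold change, and the 9 lowest pooled values, from Gm24497 to Gm22009, are negative within both sets. Set values share their libraries with the pooled values by which these 9 were picked, so they are no independent support. Of the 25 profiles, 8 reached the filter's level in all IPT but not in all KHT libraries.

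As a class, small structured RNAs held 2.50%, 2.32%, 2.02% and 2.03% of counts in KHT and 4.10%, 3.81%, 3.32% and 4.79% in IPT. The groups did not overlap, and the means were 2.22% ± 0.236 and 4.00% ± 0.614 (SD, n = 4 each; two-sided exact permutation test over 70 assignments, p = 0.0286, the smallest this design allows, and 0.114 after Benjamini-Hochberg adjustment over 4 classes). Shares of all counts depend on the dominant features, of which CT010467.1 averaged 239071 CPM in KHT and 130497 CPM in IPT, with overlapping groups. Relative to messenger and long noncoding counts outside the dominant features, the class stood at 4.81% ± 0.581 in KHT and 7.20% ± 0.635 in IPT. These groups did not overlap (exact permutation p = 0.0286, adjusted 0.114). Without the 14 dominant features, which include the 7SL and 7SK genes, the shares were 0.655% ± 0.122 and 0.872% ± 0.0540 (SD, n = 4 each; exact permutation test, p = 0.0571, adjusted 0.114), and KHT 2 lay above IPT 3. Long noncoding RNAs held 3.97% ± 1.54 of counts in KHT and 3.98% ± 0.245 in IPT (exact permutation p = 1). In KHT 3 they held 1.73% of counts, against 4.19% to 5.06% in the other pull-downs. Without KHT 3 the difference went from -0.00720 to 0.739 percentage points (exact permutation p = 0.0571, adjusted 0.114). Outside the dominant features the direction was the other one, with 1.62% ± 0.0265 in KHT and 1.80% ± 0.224 in IPT (exact permutation p = 0.286, adjusted 0.381). Messenger RNAs held 60.5% ± 6.87 and 66.6% ± 2.43 (exact permutation p = 0.171, adjusted 0.343). That difference depends on the dominant features: outside them, messenger RNAs held 88.0% ± 2.01 in KHT and 89.0% ± 0.712 in IPT.

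Transcripts of the mitochondrial genome stayed near their input levels, apart from ribosomal RNA in 1 pull-down. Of 37 features, 24 were tested and 0 were called by edgeR. In the higher direction 1 had an unadjusted p below 0.05, against 1.46% of all genes. The median log2 fold change of the 24 was 0.16. That median was 0.08 and 0.03 within the library sets, and 2 of the 24 values were negative over all libraries but 10 within each set. The 13 messenger RNAs, which encode subunits of the respiratory chain and ATP synthase, had a median of 0.13, and 10 of them had intervals within 2-fold. mt-Co1, a subunit of cytochrome c oxidase, stood at 5266, 5378, 5030 and 4629 CPM in KHT and at 4542, 4103, 4725 and 4560 CPM in IPT. mt-Co3, another subunit, stood at 943, 1037, 772 and 1015 CPM in KHT and at 807, 419, 465 and 696 CPM in IPT, with overlap through KHT 3 and a log2 fold change of 0.66 (edgeR, unadjusted p = 0.0105, adjusted p = 0.997). Without a filter on low counts, edgeR called mt-Co3 higher (adjusted p = 0.00573). mt-Co2 varied widely within both groups, from 23.7 to 334 CPM in KHT and from 22.1 to 148 CPM in IPT. The 9 mitochondrial transfer RNAs tested had a median log2 fold change of 0.17.

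Mitochondrial ribosomal RNA was high in KHT 3 alone. mt-Rnr1 stood at 1375, 2177, 14672 and 2206 CPM in KHT against 1922, 2024, 2143 and 1868 CPM in IPT, and mt-Rnr2 at 7145, 11624, 29024 and 10535 CPM against 9706, 9616, 10517 and 9625 CPM. Their log2 fold changes of 1.36 and 0.56 became -0.06 and -0.02 without KHT 3. The class as a whole held 2.32%, 2.17%, 5.14% and 1.82% of counts in KHT and 2.53%, 2.15%, 2.45% and 2.59% in IPT (exact permutation p = 0.943). Outside the dominant features and mt-Rnr1, it held 2.08% ± 0.174 in KHT and 1.85% ± 0.150 in IPT, with overlapping groups (exact permutation p = 0.0571, adjusted 0.114). The mean difference of the whole class went from 0.432 to -0.327 percentage points without KHT 3. AY036118, a feature annotated as long noncoding that takes 0.986% of pooled counts, was at 0 in this library and between 4232 and 23646 CPM in the 7 others.

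Long noncoding RNAs were tested for 242 of 2218 features, with a median log2 fold change of 0.05 and 0 calls by edgeR, DESeq2 or limma voom, which also called 0 mitochondrial transcripts. Unadjusted p-values below 0.05 in edgeR were reached by 4 in the higher and 2 in the lower direction, against 1.46% and 1.4% of all genes. Malat1, a nuclear RNA of splicing speckles (chromosome 19), stood at 7165, 7422, 5002 and 4818 CPM in KHT and at 7467, 5612, 4897 and 6110 CPM in IPT, with a log2 fold change of 0.02 (95% interval -0.46 to 0.49). Neat1, the scaffold of paraspeckles and its neighbour on that chromosome, stood at 902, 1191, 1342 and 1498 CPM in KHT and at 958, 2245, 1250 and 2514 CPM in IPT. Its pooled log2 fold change of -0.50 (95% interval -1.17 to 0.17) was 0.11 and 0.18 within the library sets, since the 2 highest inputs form the set without a pull-down. The 14 spliced host genes of snoRNAs had a median of 0.17, and Snhg15 among them had a log2 fold change of 0.64 with overlapping groups (edgeR, adjusted p = 0.997).

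Messenger RNAs make up 9786 of the 10908 genes tested, so TMM scaling places their median near 0 by construction. Their median log2 fold change was 0.00, and -0.25 with total counts. EdgeR called 0 of them, 125 had an unadjusted p below 0.05 in the higher direction and 113 in the lower, against 1.46% and 1.4% of all genes. DESeq2 called 1 messenger RNA, Rps13, and limma voom 0. All KHT libraries lay above all IPT libraries for 83 (0.848%) and below them for 79 (0.807%), near the shares over all genes (0.944% and 1.05%). The interval of the fold change lay within 2-fold for 7162, or 73.2%. Across 9783 messenger RNAs with a gene span, Spearman's rho of the fold change with the span was 0.03, a description across genes, which are not independent replicates.

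The reported ligands and partners of dAKAP1 all had fold change intervals within 2-fold of no difference. Star, whose protein brings cholesterol into mitochondria, stood at 80.5, 69.0, 166 and 144 CPM in KHT and at 73.9, 70.1, 165 and 153 CPM in IPT. Its log2 fold change was 0.00 with a 95% interval from -0.88 to 0.87, and 0.01 and -0.09 within the library sets. Sod2, the mitochondrial superoxide dismutase, stood at 48.8, 45.4, 72.3 and 77.1 CPM in KHT and at 42.2, 69.4, 64.4 and 75.9 CPM in IPT (95% interval -0.55 to 0.46). Atp5j2, a subunit of ATP synthase, had a log2 fold change of -0.22 (95% interval -0.64 to 0.21), and Akap1, the gene of the bait, one of 0.06 (95% interval -0.28 to 0.41). Larp4, a protein that binds polyA tails and partners with dAKAP1, stood at 265, 276, 258 and 301 CPM in KHT and at 268, 266, 273 and 291 CPM in IPT (95% interval -0.25 to 0.25). EdgeR called 0 of the 5, with 0 unadjusted p-values below 0.05. For reference, Actb and Gapdh had log2 fold changes of -0.27 each, with 95% intervals from -0.99 to 0.44 and from -0.71 to 0.17.

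**Figure D4:**
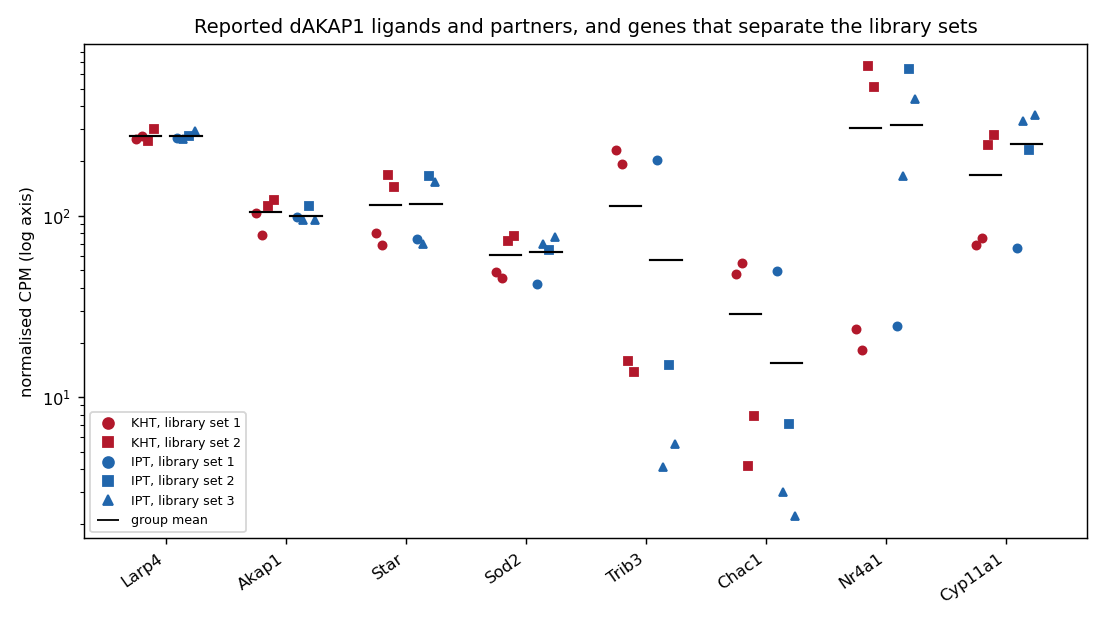
Normalised CPM (vertical log axis) of 8 messenger RNAs in each KHT (red) and IPT (blue) library; marker shapes give the 3 library sets and bars the group means. Larp4 lies between 258 and 301 CPM everywhere, while Trib3 stands high in all 3 libraries of the first set (192 to 230) and at or below 15.8 CPM in the 5 others.

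Nuclear genes of mitochondrial proteins had medians near 0. The 80 tested subunits of oxidative phosphorylation had a median log2 fold change of -0.11. Of these, 2 had unadjusted p-values below 0.05 in edgeR in the higher and 3 in the lower direction, against 1.46% and 1.4% of all genes. Ndufc2, of complex I, stood at 24.7, 24.8, 19.1 and 15.2 CPM in KHT and at 28.6, 46.5, 26.9 and 45.4 CPM in IPT, with no overlap and a log2 fold change of -0.81 (edgeR, unadjusted p = 0.00774, adjusted p = 0.997). Atp5l, of ATP synthase, had one of -0.40, and Atp5s, a factor coupled to that enzyme, one of 1.03 at a mean of 8.65 CPM in KHT (both edgeR adjusted p = 0.997). The 77 mitochondrial ribosomal proteins had a median of 0.01, and 90.9% of them had intervals within 2-fold. The 19 kinase A subunits, phosphodiesterases and anchoring proteins had a median of 0.03, with 0 calls by edgeR and 0 unadjusted p-values below 0.05.

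Cytosolic ribosomal proteins and translation factors had medians of 0.05 over 84 and 61 tested genes, with values in single genes that followed KHT 2. Rpl15 stood at 93.7, 185, 74.1 and 158 CPM in KHT and at 98.7, 63.8, 60.4 and 78.7 CPM in IPT, with a log2 fold change of 0.75 that became 0.51 without KHT 2. Rps4x went from 0.65 to 0.31 without that library, and Rps15 from 0.61 to 0.37. Eif1, which helps to select the start codon, stood at 148, 368, 140 and 218 CPM in KHT and at 168, 64.9, 92.4 and 61.5 CPM in IPT, with a log2 fold change of 1.17 that became 0.79. Pabpc1, the cytoplasmic polyA-binding protein, went from 0.45 to 0.32. None of these 5 passed the adjusted threshold in edgeR (adjusted p = 0.997 each), although without a filter on low counts it called Rpl15 (adjusted p = 0.0408) and Rps4x (0.0364) higher, and their part shared with the features that are high in KHT 2 was not tested. All 5 also had counts in the negative control pull-downs. In NEG 1, 3, 4 and 5, Rpl15 had 103, 92, 109 and 0 counts and Rps4x 178, 204, 310 and 23. There, Rps15 had 100, 146, 135 and 12 counts, Eif1 119, 147, 114 and 3, and Pabpc1 146, 116, 134 and 24. Outside the dominant features these libraries held 43851, 52393, 39248 and 55266 counts. Rps13 stood at 6.62, 8.47, 23.0 and 4.61 CPM in KHT and at 37.5, 67.5, 19 and 89.5 CPM in IPT, whereas its pseudogene Rps13-ps2 stood at 61.0, 213, 75.0 and 144 CPM and at 43.9, 33.0, 73.5 and 18.6 CPM. The gene and its numbered pseudogenes together made 200 ± 91.8 CPM in KHT and 133 ± 27.4 CPM in IPT (SD, n = 4 each), with overlapping groups, so the value of Rps13 alone is uncertain.

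Other groups of messenger RNAs had small medians as well. The 60 replication-dependent histones, whose messages end in a stem-loop instead of a polyA tail, had a median log2 fold change of 0.01, and Hist1h2ab among them 0.51 (edgeR, unadjusted p = 0.0186, adjusted p = 0.997). The 40 replication and proliferation genes had a median of -0.05. Gins3, a subunit of the replicative helicase, had a log2 fold change of 1.21 that became 0.59 without KHT 2. It had 18, 27, 13 and 0 counts in NEG 1, 3, 4 and 5. The 38 secretory pathway genes had a median of -0.04 (0.08 and 0.00 within the library sets). The 20 cytosolic tRNA synthetases had one of 0.21 (0.06 and -0.08) and the 17 glycolysis genes one of -0.20 (-0.05 and -0.04). Slc16a3, an exporter of lactate, stood at 5.58, 6.05, 3.29 and 3.96 CPM in KHT and at 8.34, 15.8, 8.69 and 12.2 CPM in IPT, with no overlap (edgeR, unadjusted p = 0.00447, adjusted p = 0.997). The 255 Zfp zinc finger genes had a median of 0.08. Zfp871 was 1 of 4 Zfp genes (1.57%, against 0.944% of all genes) with every KHT library above every IPT library, at 63.3 ± 6.56 CPM against 45.2 ± 5.20 CPM (SD, n = 4 each; edgeR, adjusted p = 0.997). The 2 tested endothelial and peritubular markers went in opposite directions. Cdh5 had a log2 fold change of -0.63 with overlapping groups (edgeR, adjusted p = 0.997). Its means were 27.4 CPM in KHT and 43.2 CPM in IPT, and it stood at 19.1 CPM in KHT 4. Pecam1, an endothelial marker, had a log2 fold change of 0.85 that became 0.37 without KHT 4. In KHT 4 it stood at 33.0 CPM against 8.87 to 17.5 CPM in the 7 other libraries. It had 35, 24, 20 and 5 counts in NEG 1, 3, 4 and 5.

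Stress and steroid genes varied between the libraries of a group. The 36 tested Atf4 targets had a pooled median log2 fold change of 0.52, with 35 of 36 values positive. Their medians of 0.00 within each library set are fixed by construction. The sets were formed on these genes and the immediate early genes, where they averaged at least 10 CPM. Chac1, an Atf4 target that breaks down glutathione, stood at 47.4, 55.1, 4.18 and 7.91 CPM in KHT and at 49.8, 3, 7.11 and 2.22 CPM in IPT. Cebpb, also on this list, had a log2 fold change of 0.48 pooled and of 0.32 and 0.28 within the sets (edgeR, adjusted p = 0.997). The 20 steroidogenic genes had a pooled median of -0.11, and the 27 genes of cholesterol synthesis and uptake -0.14 (-0.04 and -0.09, and 0.05 and -0.05, within the sets). Cyp11a1, the enzyme that starts steroid synthesis from cholesterol, stood at 69.0, 75.6, 245 and 278 CPM in KHT and at 66.2, 332, 231 and 359 CPM in IPT. The 29 immediate early genes had a pooled median of -0.14, and their medians of 0.06 and 0.05 within the sets are likewise no independent reading. In each of these lists edgeR called 0 genes, and 1 gene in all, an Atf4 target, had an unadjusted p below 0.05.

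**Figure D5:**
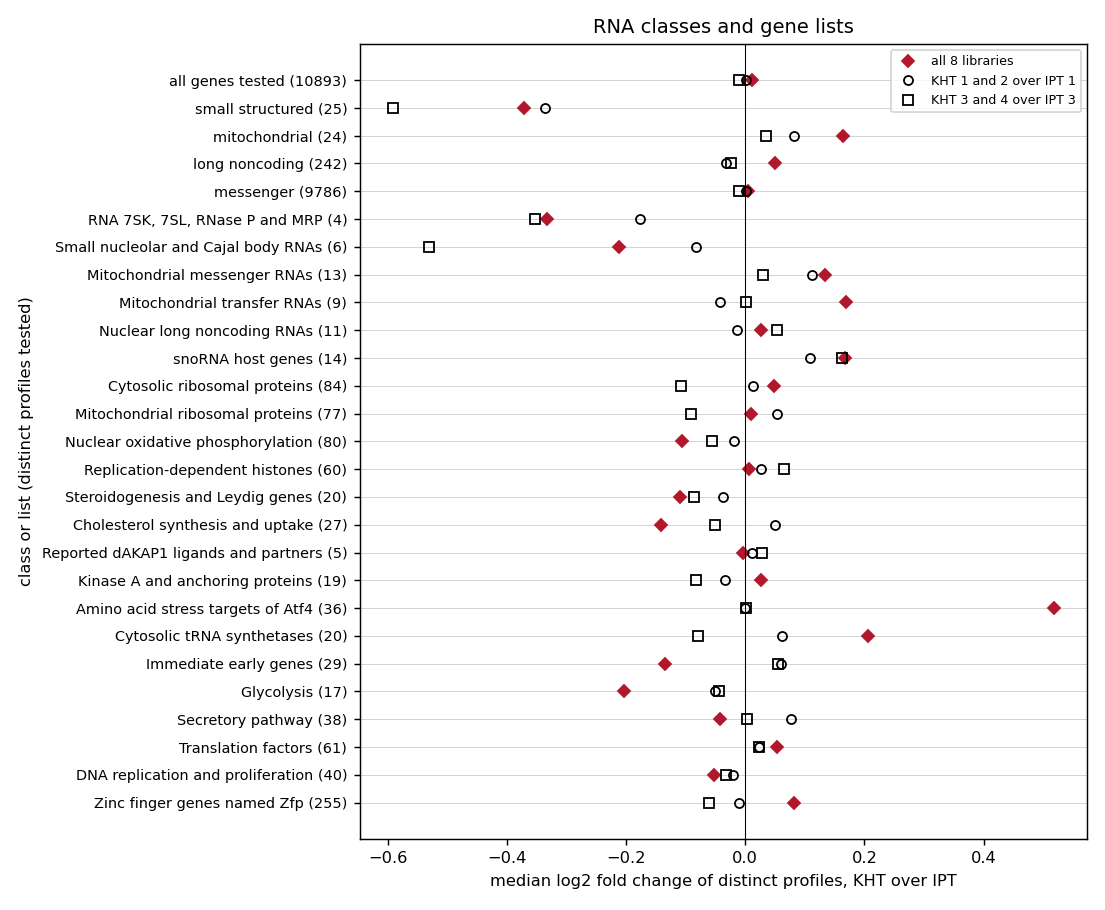
Median log2 fold change of KHT over IPT (horizontal axis) for all genes, the 4 RNA classes and each gene list with at least 5 tested members (rows, with the number of distinct count profiles in parentheses); diamonds use all 8 libraries, open symbols the first and second library set. Small structured RNAs lie below 0 in all 3 readings (-0.37, -0.34 and -0.59), which share libraries. The Atf4 targets, on which the library sets were formed, stand at 0.52 pooled and at 0.00 within each set.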

How the data were processed

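The labels' protocols describe Trizol extraction of the cells' RNA and of the RNA on the beads, and stranded total RNA libraries with depletion of ribosomal RNA. The authors deposited estimated counts (expected counts per gene, unscaled whole numbers, so rounding changed none); kallisto and DESeq2 with the builds GRCm38 and mm10 are named per the submitters' processing notes, with no roles or versions. For the step from transcripts to genes, the sources used here state nothing. Values of 2 outnumbered values of 1 in all 8 libraries, so both mates of a pair may have been counted. Symbols were found for 27004 of 27071 identifiers, and RefSeq entries of GRCm38.p6 with biotype and position for 21032; RNA class follows the biotype, or the gene lists where it gives none.

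KHT 1 to 4 were compared with IPT 1 to 4 by edgeR's quasi-likelihood test (edgeR 4.0.16, R 4.3.3; glmQLFit robust, glmQLFTest; TMM; filterByExpr), two-sided, with Benjamini-Hochberg adjustment over 10908 genes and a threshold of 0.05. The script was tested on simulated data. Class shares were compared by exact permutation (scipy 1.17.1). Normalised CPM are counts divided by the TMM-scaled library size. Replicate numbers did not pair the libraries: residual correlations of equal numbers were 0.152, -0.364, 0.211 and 0.0875.

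The comparison, the 31 gene lists and the tests were chosen with earlier results of these data known. The naming rule took every gene past the threshold that had separate groups and averaged 5 CPM or more, without unnamed models and pseudogenes, which gave 0 genes. To these came the members of each gene list with the lowest p-values, at most 4 a list, and a fixed set of 15 genes (the reported ligands and partners, Actb, Gapdh, Lars2, the 7SK, 7SL, RNase P and RNase MRP genes, Neat1 and Malat1). Unnamed models, pseudogenes, mt-Nd1, Scarna2, AY036118, CT010467.1, S100a6, Tmsb10, Krt17, Trib3, Chac1, Nr4a1, Cyp11a1 and Rpl38 were chosen after their values were seen. Library sets came from average linkage over 60 genes, also after the values were seen. Alternatives were total counts and other scalings, other filters, limma voom (limma 3.58.1), DESeq2 1.42.0, the replicate block, halved values and leaving out libraries.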

Additional observations from a re-analysis of the deposited data

Results flagged for a closer look

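Of 140 sets of 4 values checked, each a class share or a named gene in 1 group, 16 had 1 library far from the other 3 by Dixon's test at the 95% level. Chance flags about 5% of sets of well-behaved values. That rate is no fair reference here, because several flagged genes were chosen after their values were seen and some rest on few counts. KHT 3 was far above the other pull-downs in the mitochondrial share of counts (5.14% against at most 2.32%) and in mt-Rnr1 (14672 CPM against at most 2206 CPM). IPT 1 was far above the other inputs in Trib3 (202 CPM against at most 15 CPM), Chac1 (49.8 against at most 7.11 CPM), Snhg15 (16.4 against at most 8.69 CPM), Krt17 (12.8 against at most 1.58 CPM) and Rpl38-ps2 (0.278 CPM against 0). IPT 1 was far below them in Actb (1159 CPM against at least 2261 CPM) and Atp5j2 (59.5 against at least 89.2 CPM). KHT 2 was far above the other pull-downs in Rmrp (1627 against at most 1198 CPM), Rnu1a1 (2.42 against at most 1.49 CPM) and Gm22513, a small nuclear RNA model (3.02 against at most 1.39 CPM). The last 2 rest on 4, 4, 5 and 2 counts of Rnu1a1 and 4, 5, 4 and 2 of Gm22513 in KHT 1 to 4. The flag of Rpl38-ps2 rests on 1 count in IPT 1. KHT 1 was the 1 pull-down with counts of Gm24497 (8.36 CPM against 0). KHT 4 was far below the other pull-downs in Snhg15 (10.5 against at least 17 CPM). Among inputs, mt-Rnr2 was high in IPT 3 (10517 against at most 9706 CPM) and Scarna10, a Cajal body RNA, was low in IPT 2 (49.5 against at least 62.8 CPM).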

How the results depend on the processing

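The count of 2 genes called became 56 with no filter on low counts (45 higher, 11 lower) and 15 with DESeq2 (1 higher, 14 lower). It was 1 when genes had to average 10 CPM, 1 with limma voom (Gm37357), 1 when all values were halved and 0 when tested against a 2-fold change, where edgeR still gave 7 higher and 16 lower at an unadjusted p below 0.05. Total counts gave 3 calls (1 higher, 2 lower) and moved the median of all genes to -0.24. Leaving out 1 library gave 0 to 4 calls: 4 without KHT 1 and 0 without KHT 4, IPT 2, IPT 3 or IPT 4. With the replicate block edgeR called 2 genes, both shared with the fit without it. Of alternatives chosen after seeing the data, the library set as a term gave 2 calls and the fit without KHT 1, KHT 2 and IPT 1 gave 9 (5 higher, 4 lower).

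The median of the distinct small structured profiles was negative in all 20 settings, from -0.71 to -0.23, the latter without KHT 3. Most settings hold the same 25 profiles, also the one with no filter, and so keep the 8 that entered through IPT. The settings share libraries, and the test against a 2-fold change repeats the main value (-0.37), so they are no independent support. Of the members of the class, 10 were called lower by DESeq2 and 4 with no filter. Leaving out KHT 1, KHT 2 and IPT 1 gave 2 such calls. Total counts, leaving out KHT 1 and leaving out KHT 2 gave 1 each. No class share passed the adjusted threshold in any setting, which says nothing about stability, because 1 class alone at the smallest exact p gives 0.114. Directions turned with total counts for Akap1 (-0.19), Larp4 (-0.26), mt-Nd1 (-0.14), mt-Co1 (-0.068), Scarna2 (-0.15), Malat1 (-0.22) and Terc (-0.047). They turned with limma voom for AY036118 (-3.10), and with the library set as a term for Sod2 (0.19), Cyp11a1 (0.15) and Neat1 (0.15). Values near 0, such as those of Star and Larp4, also changed sign with limma voom. Leaving out 1 library gave -0.057 to 1.67 for mt-Rnr1 and -0.019 to 0.79 for mt-Rnr2, the lowest without KHT 3. Apart from the shift that total counts bring by construction, the cause was not tested. At a few CPM per library, the levels of U1, Snora74a and similar members rest on few counts, which limits their precision.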
